A study of Nannochloropsis oceanica with 12 samples.

Results

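The genes described here are 190 genes of the marine alga *Nannochloropsis oceanica* IMET1 whose transcripts were lower in the RNA interference line M2 than in the wild type (WT) in the replicate columns of both sampling times, 12 h and 24 h into growth in new medium. They were chosen by measured values. The difference between lines was taken as log2(group mean FPKM + 1) in M2 minus that in WT, where FPKM counts sequenced fragments per length of transcript and per depth of the library. A gene was a member when this difference was at or below -0.7 at both times and its mean was at least 5 FPKM in any group. Of 9756 genes in the deposited tables, 9271 reached 5 FPKM in a group and 190 met both differences. By the same differences in the other direction, 19 genes were higher in M2 at both times. A further 601 genes were lower at 12 h only and 219 at 24 h only.

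The study has 4 groups, WT and M2 at 12 h and at 24 h, all of strain IMET1. M2 is a single line with an RNA interference construct against the carbonic anhydrase CA2, and without a second line or a control construct its lowered CA2 and other differences from WT cannot be told apart. All cultures grew at 25 °C in continuous light of about 80 µmol photons per m2 and s, bubbled with air holding 5% CO2, and the design text gives 3 biological replicates per group. Polyadenylated RNA was sequenced from libraries that do not mark strand. In such bulk cultures, fewer cells making a transcript and less of it per cell cannot be told apart.

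Carbonic anhydrases interconvert CO2 and bicarbonate. In algae they are part of the machinery that concentrates inorganic carbon around Rubisco, the enzyme that fixes CO2, and that machinery is usually most active when CO2 is scarce. *Nannochloropsis* is a single-celled alga known for storing oil as triacylglycerol, and RNA interference lowers a transcript by way of small RNAs that match it. The deposited tables give a scaffold and a number for each member and no gene name or product. None (0) of the 9756 IDs in the tables, members or not, matched the 160 genes of the reference table, so no function is given to any member, and most members are described by rank, with 4 IDs printed. The ID of CA2 is not in the labels, so its own level was not checked here.

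Of 12 labelled libraries, 11 had values of their own. The third M2 12 h column equalled 0.723 times replicate 1 within 0.1% for all 190 members and was not used. WT 12 h replicate 3 stood apart from its group (r = 0.715 at the lowest with the other WT 12 h replicates, on log2(FPKM + 1)), whereas replicates of every other group correlated at 0.992 or more. The member rule did not use it, and levels, shares and time changes below leave it out unless it is named. Depth in reads is unknown. The worth of a single read was estimated from the most frequent ratio between replicates among genes of low values. By this estimate a read added 4.08 times as much FPKM in M2 12 h replicate 1 as in replicate 2, so the former was the shallower library. That ratio was shared by 14 of 122 low genes. In the other groups these ratios lay between 0.779 and 1.13, on 6 to 21 genes each (not estimated for WT 12 h replicate 3).

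In the libraries used by the rule, most members stood in M2 near 50% of their WT level. The median member had 46.1% of the WT level at 12 h, with quartiles of 40.5% and 53.1%. At 24 h the median was 52.0%, with quartiles of 46.1% and 56.1%. At most 50% of the WT level was measured for 121 members at 12 h, for 82 at 24 h and for 58 at both times. A small set lay deeper, with 8 members at or below 25% at 1 time or both. These values chose the members and describe them, with no test.

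On the log2 scale the median difference was -1.03 at 12 h (lowest -3.15) and -0.89 at 24 h (lowest -2.91). Over all 9271 genes of at least 5 FPKM, the medians were -0.04 and 0.01. Differences at or below -1 at both times were found for 41 members, and at or below -2 for 3. The gap between the lines was larger at 12 h for 120 members and larger at 24 h for 70. It differed by no more than 0.3 between the times for 139 members, was narrower at 24 h by more than that for 44 and wider for 7. The member nearest to the threshold had differences of -0.95 and -0.71, and the nearest gene outside had -0.70 (unrounded, just above -0.7) and -0.81. By level, the member with the lowest peak reached 5.70 FPKM, and 4 genes met both differences under 5 FPKM, the highest of them at 3.47 FPKM.

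**Figure D1:**
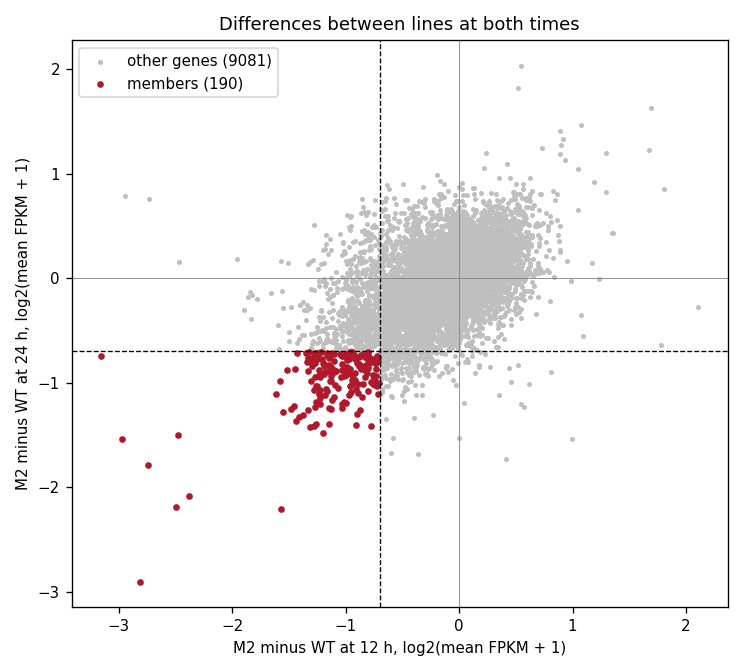
M2 minus WT on the log2(mean FPKM + 1) scale at 12 h (horizontal) and at 24 h (vertical) for genes of at least 5 FPKM in any group. Dashed lines mark -0.7; the 190 members (red) fill the lower left corner that the rule defines, most of them close to the lines and a few far below, and 9081 other genes are grey.

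All M2 libraries lay below all WT libraries for all 190 members at 12 h and at 24 h, without WT 12 h replicate 3. Among all genes of at least 5 FPKM this order held for 41.6% at 12 h, for 32.9% at 24 h and for 23.2% at both times. For the members it follows largely from the rule, and nothing is read from it. The replicates were close by comparison: the highest replicate exceeded the lowest by a median factor of 1.06 in WT 12 h, 1.10 in M2 12 h, 1.07 in WT 24 h and 1.10 in M2 24 h, on FPKM + 1.

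The members spanned low to high levels. Averaged over the WT groups, 19 members had under 10 FPKM, 136 had 10 to 100 and 35 had over 100. The median difference was alike in these classes, at -0.92, -1.06 and -0.98 at 12 h and at -0.90, -0.89 and -0.90 at 24 h. Together the members held 1.92% and 1.94% of the FPKM sum in WT 12 h replicates 2 and 1, and 0.880% and 0.893% in the M2 12 h libraries. At 24 h they held 2.58% to 2.61% in WT and 1.31% to 1.34% in M2. Among these libraries the share was higher at 24 h than at 12 h in both lines. The left-out WT 12 h replicate 3 stood far off, at 9.99%, and with it the WT 12 h libraries lie on both sides of the WT 24 h libraries.

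By the mean of the WT groups without WT 12 h replicate 3, the most abundant member was scaffold00354.g10165. Its levels were 649 and 669 FPKM in WT 12 h replicates 1 and 2, 272 and 274 in M2 at 12 h, 766, 786 and 766 in WT at 24 h, and 406, 405 and 394 in M2 at 24 h. The means were 659 ± 14.3 FPKM in WT and 273 ± 0.853 in M2 at 12 h (SD, n = 2) and 773 ± 11.3 and 402 ± 6.38 at 24 h (SD, n = 3). WT 12 h replicate 3, at 723 FPKM, also lay above the M2 libraries of that time. M2 stood at 41.4% of WT at 12 h and at 52.0% at 24 h.

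The next member by level had 575 and 603 FPKM in WT and 196 and 204 in M2 at 12 h. At 24 h it had 739, 765 and 756 in WT and 306, 310 and 314 in M2. It was the deepest of the 4 most abundant members, with differences of -1.55 and -1.28, and WT 12 h replicate 3 reached 2424 FPKM. For the member of rank 3, the 12 h values were 514 and 501 FPKM in WT and 239 and 240 in M2, with 4508 in WT 12 h replicate 3. Its 24 h values were 620, 617 and 626 in WT and 334, 337 and 336 in M2. The member of rank 4 had 437 and 422 FPKM in WT and 226 and 229 in M2 at 12 h, and 668, 660 and 657 against 343, 357 and 355 at 24 h. In this member alone of the 4, WT 12 h replicate 3 (214 FPKM as deposited) lay below the M2 12 h libraries. That order rests on the scale. Median-of-ratios scaling raised replicate 3 from 0.499 to 0.658 times the mean of WT 12 h replicates 1 and 2 (FPKM + 1). M2 stood at 53.0% of that mean as deposited.

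The deepest member by the mean of both differences was scaffold00182.g5396, with differences of -2.81 at 12 h and -2.91 at 24 h. It had 14.8 and 14.4 FPKM in WT and 1.60 and 0.863 in M2 at 12 h, and 17.7, 20.1 and 17.9 in WT against 2.50, 1.29 and 1.04 in M2 at 24 h. The means were 14.6 ± 0.289 and 1.23 ± 0.522 FPKM at 12 h (SD, n = 2) and 18.5 ± 1.32 and 1.61 ± 0.779 at 24 h (SD, n = 3), so that M2 held 8.42% and 8.67% of the WT level. WT 12 h replicate 3 had 1.45 FPKM and lay within the range of the M2 12 h libraries. For this gene the 12 h groups therefore overlap as deposited once that library is counted. Median-of-ratios scaling raised that library from 0.157 to 0.189 times the mean of WT 12 h replicates 1 and 2 (FPKM + 1). The overlap may thus not hold on the scaled values.

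The second deepest member had 22.0 and 27.0 FPKM in WT and 3.04 and 4.02 in M2 at 12 h, and 17.8, 15.5 and 15.9 against 3.20, 3.76 and 1.49 at 24 h. Here WT 12 h replicate 3, at 21.9 FPKM, was close to the other WT libraries. The third had 17.0 and 15.1 FPKM in WT and 1.08 and 2.02 in M2 at 12 h, and 9.98, 9.41 and 10.6 against 1.56, 2.94 and 2.06 at 24 h. The member of rank 4 was far more abundant, with 366 and 361 FPKM in WT and 42.9 and 48.2 in M2 at 12 h. At 24 h it had 260, 256 and 258 in WT and 89.4, 88.1 and 86.4 in M2, and its gap narrowed from -2.97 to -1.54. In WT 12 h replicate 3 the members of rank 3 and 4 had 31.2 and 781 FPKM, above every other library.

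**Figure D2:**
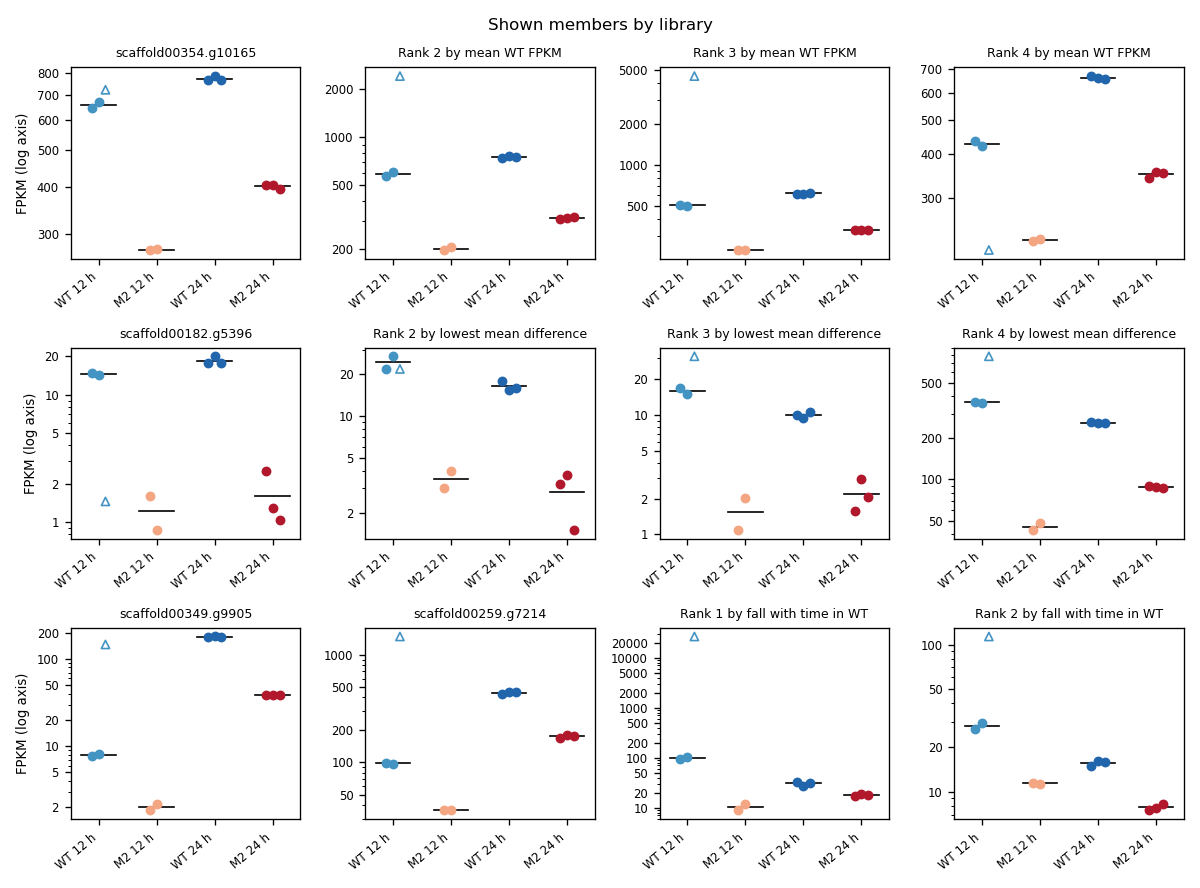
FPKM as deposited (log axes that differ between panels) for 12 members chosen by level, by depth of the difference and by change with time. Filled circles are the libraries the rule used, bars their means (n = 2 at 12 h, n = 3 at 24 h), and the open triangle is WT 12 h replicate 3, which ranges from 1.45 FPKM in scaffold00182.g5396 to 26602 FPKM in the member with the largest fall in WT.

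The rule used neither WT 12 h replicate 3 nor the authors' merged 12 h columns. In WT 12 h replicate 3, 182 of the 190 members lay above both M2 12 h libraries after median-of-ratios scaling, against 45.7% of all genes of at least 5 FPKM. With FPKM as deposited the count was 174 (37.2% of all genes), and with libraries scaled to an equal sum it was 168 (29.1%). The M2 values in this count were used by the rule, so a high count is partly built in.

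The members were not only on the WT side of M2 in that library but mostly above the other WT libraries. It exceeded both other WT 12 h libraries for 165 members, against 45.5% of all genes, and by at least 4-fold, on scaled FPKM + 1, for 88 members, against 10.1%. At least 4-fold below were 5 members, against 8.47%. The median member was 3.50-fold above replicates 1 and 2, and the median of all genes was 0.934-fold. Genes lower in M2 at 24 h only were similar in this respect, with a median of 3.36-fold and 103 of 219 at least 4-fold above. For genes lower at 12 h only the values were 1.44-fold and 118 of 601, and for genes higher in M2 at both times they were 0.891-fold and 2 of 19. These differences between the sets were not tested. The members together held 9.99% of the FPKM sum of that library, or 6.58% without the single most abundant member.

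The authors' merged columns, 1 value per gene and group with no replicates, differed between the times. At 24 h they nearly repeat the replicate means that the rule used, so what they show there is built in. All 190 members were at or below -0.7 in the merged 24 h columns, against 4.45% of all genes, with a median of -0.90. M2 was below WT there for all 190, against 48.9%, and nothing is read from either count. At 12 h only 32 of 190 were at or below -0.7, against 4.85%, and the median was 0.08. M2 was below WT in the merged 12 h columns for 84 members (44.2%), compared with 50.6% of all genes. For the members as a whole, the label "lower at both times" therefore describes the replicate columns, and the merged 12 h columns go against it. The libraries the rule used cannot alone give some of those merged values (shown in the next paragraph). Since the libraries that entered them are not named, how far they are separate from the replicate columns cannot be told.

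The merged M2 12 h column departed from its replicates. It stood a median of 3.74-fold above the mean of M2 12 h replicates 1 and 2 over the members and 0.747-fold over all genes of at least 5 FPKM. It was above both replicates for 172 members, against 29.7% of all genes, and at least 2-fold above their mean for 128, against 13.9%. The merged WT 12 h column stood 1.46-fold above the mean of WT replicates 1 and 2 over the members and 0.753-fold over all genes. At 24 h the merged columns stood at 1.00-fold the replicate means in WT and 0.999-fold in M2, at the median over members. Of the 88 members at least 4-fold above in WT 12 h replicate 3, 86 were at least 2-fold above in the merged M2 12 h column, and of the other 102 members 42 were. The sources used here do not name the libraries that entered the merged columns. In the member with the largest fall in WT, merged WT 12 h held 9129 FPKM. WT 12 h replicates 1 and 2 held 95.2 and 106 FPKM there and replicate 3 held 26602. A mean of replicates 1 and 2 alone cannot give that merged value. In rank 3 by level, merged M2 12 h held 2810 FPKM, which M2 12 h replicates 1 and 2, at 239 and 240, cannot give alone.

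**Figure D3:**
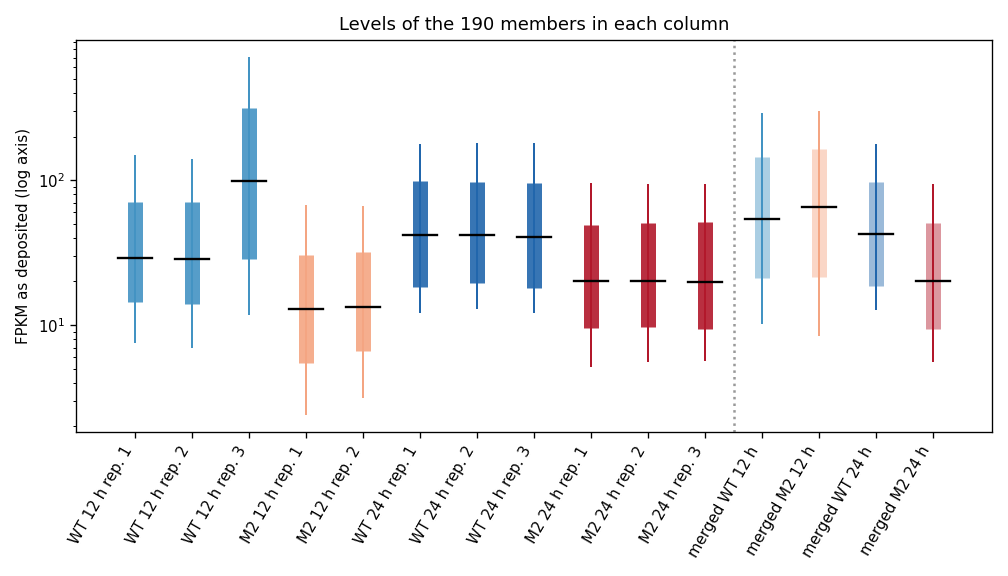
Levels of the 190 members (FPKM as deposited, log axis) in the 11 libraries and, right of the dotted line, in the authors' 4 merged columns. Black lines are medians, thick bars the quartiles and thin lines the 10th to 90th percentiles over members; the medians are 28.9 and 28.5 in WT 12 h replicates 1 and 2, 98.4 in WT 12 h replicate 3, 12.9 and 13.3 in M2 12 h, and 65.2 in merged M2 12 h.

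The 32 members at or below -0.7 in the merged 12 h columns included 9 of the 10 deepest members. All of the 4 deepest were among them. The merged 12 h columns cannot be taken as separate from the replicates that ranked the members, so this agreement is partly built in. For scaffold00182.g5396 the authors' merged values were 7.99 FPKM in WT and 1.15 in M2 at 12 h. The members of rank 2 to 4 had 20.002, 18.9 and 452 FPKM in WT and 3.20, 2.02 and 68.0 in M2. Of the 4 most abundant members, scaffold00354.g10165 had 584 FPKM in WT and 468 in M2 in the merged 12 h columns. Rank 2 by level had 1129 and 553, which is past -0.7 like the deepest members. Ranks 3 and 4 had 1798 and 293 in WT and 2810 and 289 in M2. The 32 had a median difference of -1.21 at 12 h and -0.88 at 24 h in the replicate columns, and the other 158 had -0.995 and -0.90.

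The rule did not use the change from 12 h to 24 h within each line, although it used the same libraries. In the replicate columns used by the rule, members mostly rose with time in both lines. At the median over members, the authors' merged columns went the other way, from 53.6 FPKM at 12 h to 42.3 at 24 h in WT. In M2 the merged medians went from 65.2 to 20.2 FPKM. The counts that follow are from the replicate columns. In WT 137 of 190 rose and 12 fell, where 33.1% of all genes tested rose and 33% fell (limma, adjusted p under 0.05, without WT 12 h replicate 3). In M2 161 rose and 6 fell, against 34.9% and 35.2%. The median log2 change of the members was 0.46 in WT and 0.51 in M2, and that of all tested genes was 0.00 and -0.01. A rise in both lines was called for 134 members (25% of all genes), and a fall in both for 5 (25.8%). A rise in WT was paired with no call in M2 for 3 members (6.75%) and with a fall for 0 (1.36%). A rise in M2 was paired with no call in WT for 23 (8.65%) and with a fall in WT for 4 (1.23%). A fall in WT alone was called for 3 (6.02%) and in M2 alone for 1 (8.04%).

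The WT result depended on WT 12 h replicate 3. With it in the fit, 12 members rose and 1 fell in WT, against 7.51% and 8.42% of all genes, and the median log2 change of the members turned to -0.26. That library is no part of the M2 change and enters it only through the scaling and the shared estimate of spread. With it 11 members rose in M2 (8.14% of all genes) and 0 fell (6.95%), or 32 and 2 at an unadjusted limma p under 0.05, and the median log2 change stayed at 0.51. A fit of the M2 libraries alone gave 149 rises and 5 falls among 189 members tested. Over all 9564 genes of that fit, 3170 rose and 3188 fell.

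The largest rise was in scaffold00349.g9905, whose differences between lines were -1.57 and -2.21. It had 7.80 and 8.08 FPKM in WT 12 h replicates 1 and 2 and 181, 181 and 180 in WT at 24 h. In M2 it had 1.84 and 2.19 FPKM at 12 h and 38.2, 38.5 and 38.2 at 24 h. All 24 h libraries lay above the 12 h libraries of their line, and M2 at 24 h lay above WT 12 h replicates 1 and 2. The means were 7.94 ± 0.198 and 2.02 ± 0.254 FPKM at 12 h (SD, n = 2) and 181 ± 0.435 and 38.3 ± 0.163 at 24 h (SD, n = 3). The log2 changes were 4.33 in WT (SE 0.06, limma adjusted p = 2.52e-13) and 3.67 in M2 (SE 0.06, limma adjusted p = 6.89e-13). WT 12 h replicate 3, at 147 FPKM, was close to the WT 24 h libraries, and with it the WT change was 2.85 (limma adjusted p = 0.0973) and the M2 change also missed the threshold (limma adjusted p = 0.0639).

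The next largest rise in M2 was in scaffold00259.g7214, from 35.7 and 36.3 FPKM at 12 h to 169, 178 and 177 at 24 h. In WT it went from 98.5 and 96.5 FPKM to 432, 446 and 448. The log2 changes were 2.20 in M2 (SE 0.03, limma adjusted p = 4.72e-13) and 2.15 in WT (SE 0.03, limma adjusted p = 4.6e-13), and the difference between the lines was -1.41 at 12 h and -1.33 at 24 h. WT 12 h replicate 3 had 1475 FPKM, more than any 24 h library, and with it neither the WT change, at 0.72, nor the M2 change passed the threshold (limma adjusted p = 0.662 and 0.249). The 4 most abundant members rose more modestly, by 0.21, 0.33, 0.27 and 0.60 in WT and by 0.51, 0.58, 0.44 and 0.58 in M2 on the log2 scale (limma adjusted p of 6.17e-06 at most). With WT 12 h replicate 3 the WT changes were 0.04, -0.47, -0.90 and 0.81, and only that of rank 4 passed (limma adjusted p = 0.858, 0.617, 0.51 and 0.00642). With it the M2 changes of ranks 1 to 3 also missed the threshold (limma adjusted p = 0.0514, 0.645 and 0.842) and that of rank 4 passed (limma adjusted p = 0.047).

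Few members fell. The largest fall in WT was in the member whose gene number follows that of the second deepest member. It had 95.2 and 106 FPKM in WT 12 h replicates 1 and 2 and 33.3, 27.8 and 31.96 in WT at 24 h, and its WT change on the log2 scale was -1.68 (SE 0.11, limma adjusted p = 1.17e-07). In M2 it had 8.86 and 12.0 FPKM at 12 h and 17.0, 19.2 and 18.0 at 24 h, a rise of 0.71 (SE 0.11, limma adjusted p = 0.000144). Its difference between lines went from -3.15, the deepest at 12 h, to -0.75. In WT 12 h replicate 3 it had 26602 FPKM, the highest value of all genes in that library and 3.41% of its FPKM sum. In the merged columns it had 9129 FPKM in WT and 166 in M2 at 12 h.

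The second largest fall in WT was from 26.8 and 29.2 FPKM to 15.1, 16.2 and 16.03. In M2 the same member fell from 11.4 and 11.4 to 7.47, 7.72 and 8.31. The log2 changes were -0.81 in WT (SE 0.07, limma adjusted p = 1.65e-06) and -0.53 in M2 (SE 0.07, limma adjusted p = 4.65e-05). Of the 4 deepest members, scaffold00182.g5396 missed the threshold in both lines, at 0.30 in WT and 0.18 in M2 (limma adjusted p = 0.218 and 0.46). The members of rank 2 and 3 fell in WT, by 0.57 and 0.65 on the log2 scale (limma adjusted p = 0.0433 and 0.00948). The member of rank 4 fell by 0.51 in WT and rose by 0.89 in M2 (limma adjusted p = 7.36e-07 and 5.65e-09). With WT 12 h replicate 3 the falls of all of these missed the threshold in WT (limma adjusted p of 0.0786 to 0.165), as did every M2 change named here (limma adjusted p of 0.182 to 0.915).

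Rises reached at least 2-fold for 22 members in WT (3.53% of all genes) and for 32 in M2 (8.08%). Falls reached 2-fold for 1 member in WT (1.71%) and for 0 in M2 (0.929%), where the lowest fitted change was -0.85. Other sets of genes differed in which line rose. Of the 601 genes lower in M2 at 12 h only, 278 rose in WT and 493 in M2, and of the 219 lower at 24 h only, 202 rose in WT and 144 in M2. This follows in part from how those sets are defined, since a gap that opens or closes with time is a difference in time change. Of the 19 genes higher in M2 at both times, 16 fell in WT and 17 in M2, the opposite of the members. The contrast between these sets was not tested. By 24 h the mean of M2 was still below the mean of WT at 12 h for 165 members, compared with 4819 of 9271 genes. The rule used both means, so this excess is largely built in.

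**Figure D4:**
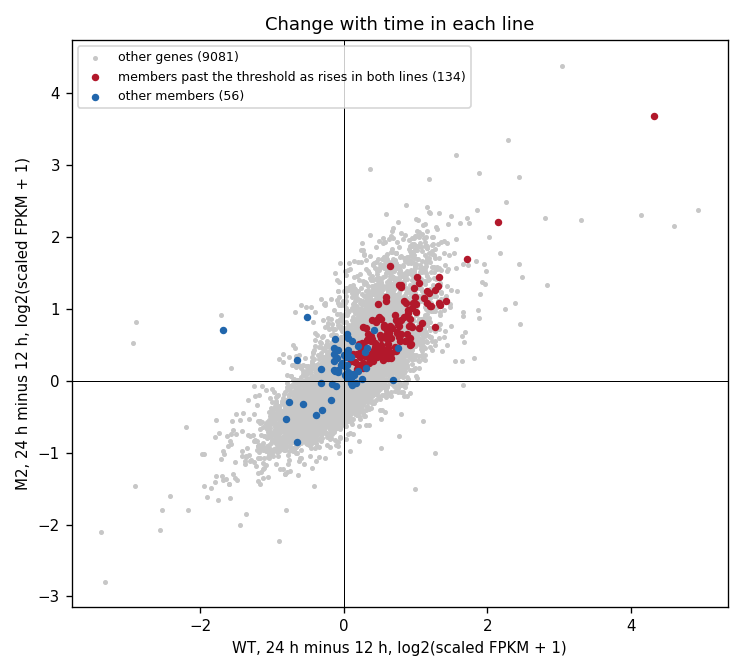
Change from 12 h to 24 h in WT (horizontal) and M2 (vertical) on the log2(scaled FPKM + 1) scale, without WT 12 h replicate 3. Red points are the 134 members past the limma threshold as rises in both lines, blue points the other 56 members and grey points 9081 other genes of at least 5 FPKM; most members lie where both changes are above 0.

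The IDs show where members stand in the numbering of genes along a scaffold, which the rule did not use. The files hold no coordinates, so a consecutive number stands for a neighbour only as far as numbering follows position. Where the gene with the next number on the same scaffold was in the table, it was also a member in 15 of 170 cases (8.82%), compared with 1.91% over all genes. At a distance of 2 numbers the share was 4.29% (7 of 163 pairs), where all genes gave 1.81%. From 3 to 10 numbers it varied between 0.641% and 3.57% with no steady order, on 1 to 6 pairs of members each. In all, 29 members formed 14 runs of consecutive numbers, 1 of them of 3 genes.

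**Figure D5:**
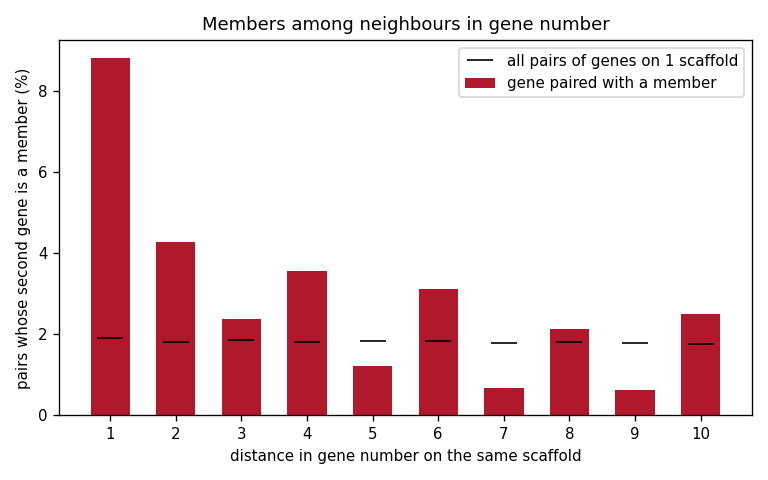
Share of gene pairs (percent) whose second gene is a member, by distance in gene number on the same scaffold, for pairs whose first gene is a member (bars) and for all pairs of genes (black marks). The bar at distance 1 stands at 8.82% and the marks at 1.78% to 1.91%; the bars rest on 1 to 15 member pairs each.

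Some neighbours had like levels and some did not. The pair with the deepest differences had -2.49 and -3.15 at 12 h but -2.19 and -0.75 at 24 h, and the gene with the smaller number held 0.90 times, the other 262 times, its mean of WT 12 h replicates 1 and 2 in WT 12 h replicate 3 (FPKM + 1, as deposited). In the run of 3 genes the differences lay between -1.58 and -0.81 at 12 h and between -0.99 and -0.74 at 24 h, and all 3 had positive time changes in both lines, of 0.38 to 0.58 in WT and 0.64 to 1.16 in M2. With WT 12 h replicate 3 the WT changes of all 3 turned to between -0.93 and -0.56. The most abundant pair had mean WT levels of 96.0 and 545 FPKM. With libraries that do not mark strand, reads shared by overlapping neighbours could not be separated, and whether any of these pairs overlap was not tested.

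Genes next to a member that were not members themselves (288 of at least 5 FPKM) had median differences of -0.14 at 12 h and -0.05 at 24 h. The difference was below 0 for 190 of them at 12 h (66.0%) and for 163 at 24 h (56.6%), compared with 54.7% and 48.4% of all genes. By scaffold, members were spread: 55 of 275 scaffolds with genes of at least 5 FPKM held a member. All 29 scaffolds with at least 100 such genes did, with between 0.664% and 4.41% of their genes being members.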

How the data were processed

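The authors deposited FPKM values for polyadenylated RNA, in 1 table per group and 2 tables of merged group values, and the submitters' processing notes name TopHat2 2.0.4 and Cufflinks 2.0.2. The genome build, like the annotation, is not given in the sources used here. No source says whether 1 normalization covered the 4 tables, so differences between groups and between tables cannot be told apart. The members and lists were chosen with earlier results of these data known. The labels' treatment protocol sets out a different experiment with a low-CO2 arm, and groups were taken from sample titles. The labels name whole cells as the source but nuclear RNA as the molecule subtype, so which was measured is not settled.

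The rule was applied to FPKM as deposited. Time changes were fitted over all genes with a mean of at least 1 FPKM (9579) in 10 libraries, on log2(FPKM + 1) after median-of-ratios scaling over 9615 genes above 0 in all of them, with limma 3.58.1 in R 4.3.3 (a mean per group, intensity trend, 2-sided, Benjamini-Hochberg adjustment, threshold 0.05) and no replicate block. The scale understates changes of low genes. WT 12 h replicate 3 was left out of these fits, as in the rule, and kept in an alternative. Alternatives were other pseudocounts, filters, scalings, moderation, libraries and the replicate block. The fits were also run on simulated libraries with changes set in advance. Those had equal spread and no differences in depth, so nothing on error rates in these data is read from them. The repeated header of the third M2 12 h column names no sample of its own. Tables and figures used Python 3.11.15, numpy 2.4.6, pandas 2.3.3 and matplotlib 3.10.9. FPKM carry no read counts, so no count model was used.

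Members shown in full were the 4 highest by mean WT level, the 4 with the lowest mean difference, the 2 largest rises in M2, the 2 largest falls in WT, and those with the largest and smallest change of the difference between times, which are among them. IDs were printed for 4, since no table pairs them with names.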

Additional observations from a re-analysis of the deposited data

Results flagged for a closer look

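In 2 of the members shown, every WT library used was lower at 24 h than at 12 h and every M2 library was higher, so the lines moved in opposite directions. The difference between the lines was not tested because the rule used it. For the member of rank 4 by depth the mean went from 363 to 258 FPKM in WT and from 45.5 to 88.0 in M2, and the log2 difference between lines moved by 1.43. For the member with the largest fall in WT the means went from 100 to 31.0 FPKM and from 10.4 to 18.1, and the difference moved by 2.40. In WT 12 h replicate 3 these members had 781 and 26602 FPKM. With that library in the fit, neither M2 rise passed the threshold (limma adjusted p = 0.182 and 0.895). Neither WT fall did (limma adjusted p = 0.0906 and 0.165). Every WT library used lower and every M2 library higher at 24 h was found for 6 of 190 members. That share is near the 3.04% of all genes of at least 5 FPKM, so nothing about the members is read from it. The reverse was found for 0 members and 2.55% of those genes.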

How the results depend on the processing

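The number of members, 190, became 98 with a pseudocount of 5, 41 with a threshold of -1 and 512 with -0.5, by construction. With WT 12 h replicate 3 in the WT mean it became 312, of which 175 were among the 190 (the cause was not tested). It was 248 with a pseudocount of 0.1, 153 after median-of-ratios scaling (all 153 among the 190), 178 with an equal sum, 194 and 179 with minima of 1 and 10 FPKM, and 185 to 199 without each library in turn.

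In the replicate columns used by the rule, rises and falls of members with time were 137 and 12 in WT and 161 and 6 in M2. With WT 12 h replicate 3 they were 12 and 1 in WT and 11 and 0 in M2 (limma, 2 falls at an unadjusted p under 0.05). Quantile normalization gave 11 falls in M2, and the cause was not tested. Leaving out each library in turn gave 122 to 138 rises and 10 to 13 falls in WT, and 148 to 159 and 5 to 6 in M2. Other pseudocounts, filters, scalings and moderation settings, and fits of the compared groups only, kept these counts within 1.5 times. With the replicate number as a block there were 136 rises and 11 falls in WT and 156 and 6 in M2. The labels do not say that a number marks a shared culture, and deviations of same-numbered and other libraries at the 2 times correlated across genes between -0.0266 and 0.0242.

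Depth in reads is unknown, so the limit on low members, such as those near 1 FPKM in M2, cannot be given. With 2 libraries per line at 12 h, the spread there rests on pooling over groups.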

Other observations

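Of the 88 members at least 4-fold above WT 12 h replicates 1 and 2 in that library, 79 rose in WT and 82 in M2 (limma), with median log2 changes of 0.66 and 0.65. Of the other 102 members 58 and 79 rose, with medians of 0.23 and 0.40. Among other genes of at least 5 FPKM, 849 were at least 4-fold above in that library, of which 627 rose in WT and 653 in M2. Of the remaining 8232 genes, 2275 and 2374 did. The fold and the WT change share WT 12 h replicates 1 and 2 as their base, whereas the M2 change shares no library with the fold. The differences between these sets were not tested.

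Among genes of at least 5 FPKM, 44 were at or below -0.7 in the authors' merged columns at both times, and 32 of them are members. The merged 24 h columns nearly repeat the means the rule used, so this overlap is partly built in. Of the 32, 13 rose with time in WT (40.6%) and 21 in M2 (65.6%, limma), where 33.1% and 34.9% of all genes tested rose. Of the other 158 members, 124 rose in WT (78.5%) and 140 in M2 (88.6%). The difference between these sets was not tested.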
